A study of Zea mays with 3 samples.

Results

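Actin and alpha tubulin are the structural proteins of the plant cytoskeleton, and the array signals of 3 of their genes were followed here in maize roots, transcript by transcript and probe by probe. The genes were GRMZM2G152466, an alpha tubulin named tua4 (TUBA4) in the RefSeq gene table, GRMZM2G006765, an actin named Actin-7 and Maz81, and GRMZM2G067985, a second actin named Actin-7. Every array transcript whose identifier begins with the code of 1 of these genes was taken, which gave 21 of the 59756 transcripts of the array (7 of GRMZM2G152466, 2 of GRMZM2G006765 and 12 of GRMZM2G067985) and 46 of its 139000 transcript probes (14, 6 and 26). The genes were chosen by their names and with earlier measured values of the same arrays in view, among them the equal levels of the actin transcript GRMZM2G067985_T08 in all arrays. All values below are therefore descriptions, and none is a test.

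Actin monomers join into filaments along which myosins carry organelles and vesicles, and which shape tip growth, for example of root hairs. Alpha and beta tubulin pair into the dimers of which microtubules are built, and in plants the microtubules under the plasma membrane guide the laying down of cellulose. Both proteins are encoded by families of similar genes, and because most cells use them their transcripts are often taken as references in RT-PCR.

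The roots came from maize cultivar PR33T56, which the sample labels list as a hybrid and the paper as an inbred line. Plants that were 5 days old were placed for 8 h in nutrient solution with 0.5 mM urea as nitrogen source and 0.897 µM NBPT, an inhibitor of urease, the enzyme that splits urea into ammonia and carbon dioxide. This treatment, Urea+NBPT, was the only group, with 3 replicates, each a pool of the whole roots of 6 plants and so a mixture of all root cell types. Arrays of roots given urea without NBPT were not analysed here, so nothing below compares conditions. The labels describe the replicates as biological, from the experiment repeated 3 times.

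A NimbleGen maize array holds 2 or 3 probes for nearly every transcript predicted from the B73 reference, and 1663 probes of random sequence. The random control probes give the background of each array. Their median intensity was 73.3, 69.6 and 70.4 in replicates 1, 2 and 3, against an array median of 550 in each. The detection threshold, set so that 95% of an array's random control probes lay below it, was 285, 299 and 285. The highest random control probe reached 1774, 2221 and 2738. A probe was called above background where it exceeded the threshold of its own array in all 3 arrays. A transcript was called detected where its log2 level, the median polish of its normalized probes, did so on the log2 scale, at 8.24, 8.30 and 8.24. Probes bind their targets with different strength, so a probe is judged here against the random control probes and against itself in the other replicates. Where a probe is called bright it exceeded every random control probe in all arrays, and where dim it did not pass the threshold in all of them, and the intensities of different probes are not compared as amounts of RNA. The probe sequences were not used here, so whether a probe also matches a transcript of a related actin or tubulin gene, or another transcript of its own gene, was not determined.

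The alpha tubulin gene served the study as a reference for real-time RT-PCR. The primers are shown because they define what that assay amplified, and they are listed for the transcript GRMZM2G152466_T01.
forward: aggtcatctcatccctgacg
reverse: tgaagtggatcctcgggtag
Each primer has 20 bases and is written from 5′ to 3′. The transcript sequences were not used here, so the place of the primers relative to the array probes, and which of the 7 transcripts they amplify, were not determined.

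Most of the actin and alpha tubulin transcripts gave signal in Urea+NBPT roots. Detected were 19 of the 21 transcripts, against 62.6% of all transcripts on the array. They comprised 6 of 7 transcripts of the alpha tubulin GRMZM2G152466, both transcripts of the actin GRMZM2G006765 and 11 of 12 of the actin GRMZM2G067985. At a stricter threshold, above 99% of each array's random control probes, 17 were detected, against 47.4% of all transcripts, and the transcripts lost were GRMZM2G067985_T08 and GRMZM2G067985_T09. Of the single probes, 36 of 46 lay above background in all 3 arrays, against 57.5% of all transcript probes. These were 12 of 14 probes of GRMZM2G152466, 6 of 6 of GRMZM2G006765 and 18 of 26 of GRMZM2G067985. At the stricter threshold 31 of 46 probes passed, against 45.1% of all transcript probes. In all 3 arrays, 21 of the 46 exceeded every random control probe, against 24.7%. Another 2 probes, both of GRMZM2G067985, lay above background in some arrays, and 8 in none.

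**Figure D1:**
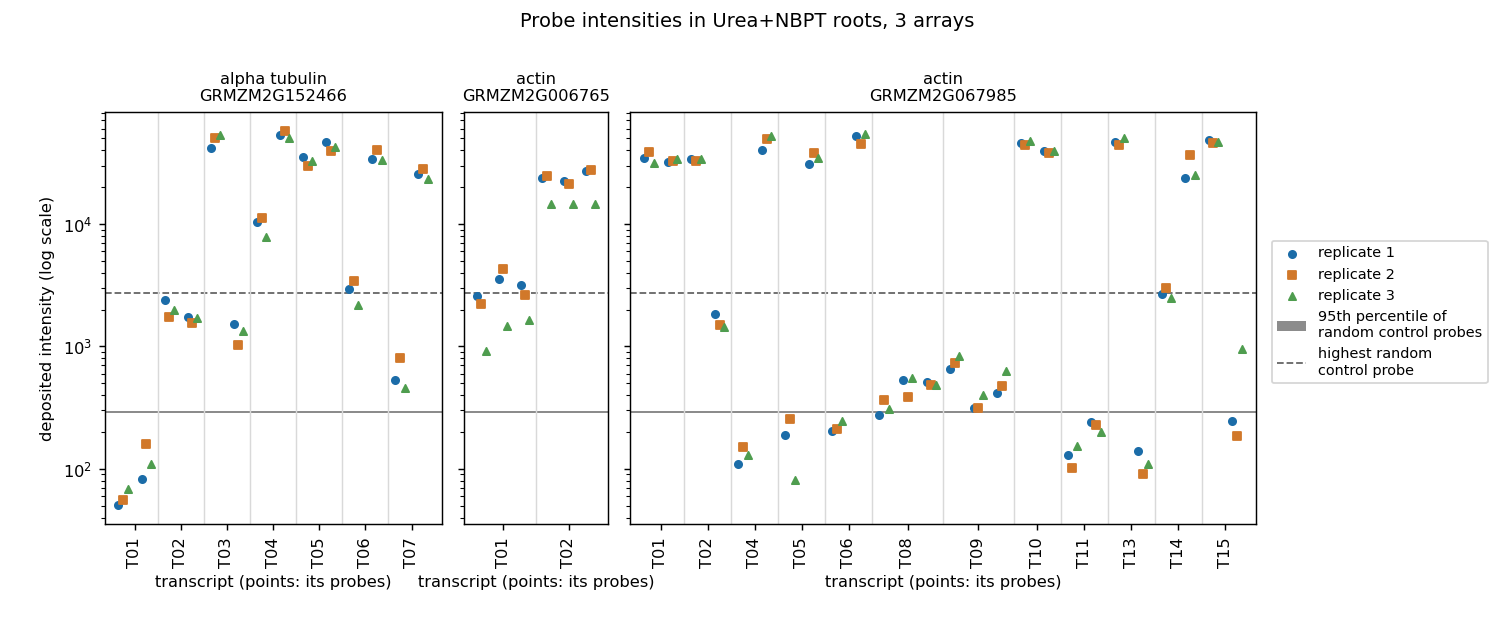
Deposited intensity (log scale) of each of the 46 probes in 3 replicates, grouped by transcript within the alpha tubulin GRMZM2G152466 and the actins GRMZM2G006765 and GRMZM2G067985. The grey line is the 95th percentile of random controls (285 to 299) and the dashed line the highest random control probe (2738), and in GRMZM2G006765 the points of replicate 3 lie below those of the other replicates in all 6 probes.

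GRMZM2G152466, the alpha tubulin, was detected in 6 of its transcripts and at background in the one for which the RT-PCR primers are listed. The probe of GRMZM2G152466_T01 at position 1924 read 50.3, 55.4 and 68.0 in replicates 1, 2 and 3, where 15.0, 29.9 and 47.6% of the random control probes were dimmer. Its probe at position 1973 read 82.6, 160 and 110, with 58.7, 86.4 and 75.9% of the random control probes below it. Neither probe passed the threshold in any array, and the transcript level was 6.62 ± 0.24 (log2, SD, n = 3). The position is the one listed in the array files, and the sources used here do not say from which end of the transcript it counts. These positions are the highest of the gene's 14 probes.

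The other 6 alpha tubulin transcripts had both probes above background in every array. In GRMZM2G152466_T05 the probe at position 304 read 35111, 29928 and 32719 in replicates 1, 2 and 3, and the probe at 952 read 46611, 39762 and 42276. All 6 values exceeded every random control probe, replicate 2 was the lowest in both probes, and the transcript level was 15.19 ± 0.11. In GRMZM2G152466_T04 the probe at position 1342 read 52818, 57405 and 49990 and the one at 104 read 10285, 11222 and 7886, with replicate 2 the highest and replicate 3 the lowest in both (level 14.47 ± 0.18). The same order held in GRMZM2G152466_T06, with 33835, 39864 and 33286 at position 288 and 2961, 3399 and 2165 at position 90 (level 13.29 ± 0.23).

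GRMZM2G152466_T03 read 42079, 50813 and 53579 at position 620 and 1517, 1027 and 1326 at position 1799, and its 2 probes ordered the replicates differently (level 12.95 ± 0.11). In GRMZM2G152466_T07 the probe at position 972 read 25452, 28034 and 23157 and the one at 313 read 534, 800 and 457. The probe at 313 stayed below the highest random control probe in every array, and this transcript had the largest SD of the gene, 0.27 around a level of 11.93. GRMZM2G152466_T02 had its probes only 8 bases apart, at positions 996 and 1004, and they read 2406, 1736 and 1982 and 1725, 1562 and 1692 (level 10.85 ± 0.15). Both ordered the replicates alike, with replicate 1 highest and replicate 2 lowest.

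**Figure D2:**
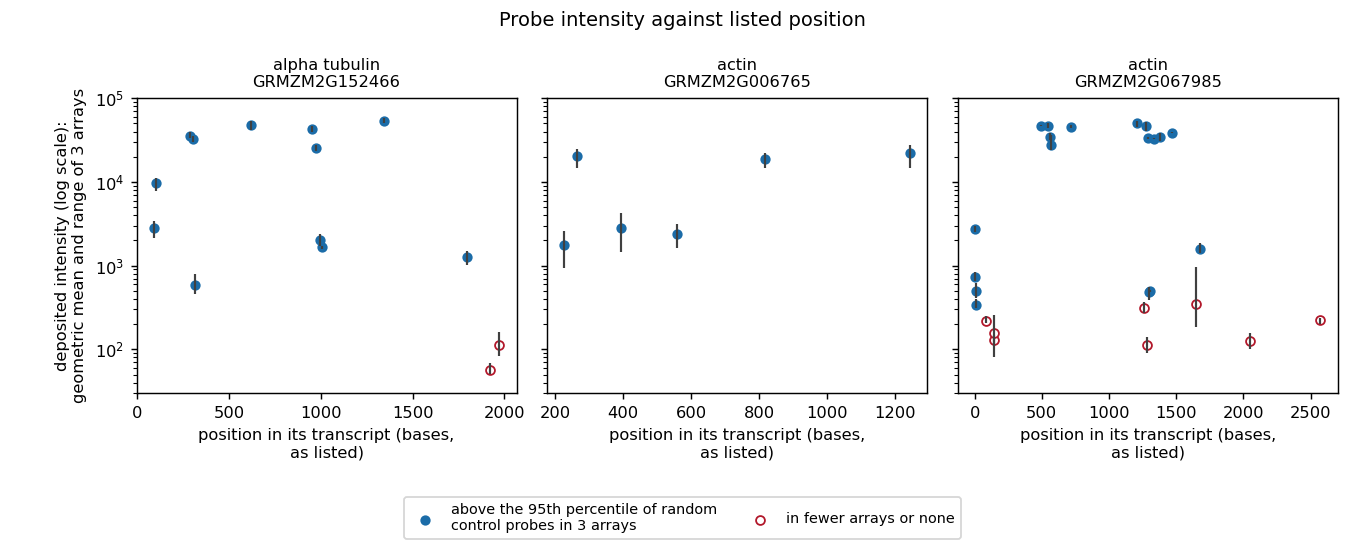
Geometric mean intensity over 3 replicates (log scale) of each probe against its listed position in its transcript, with a line over the range of the replicates, for the alpha tubulin GRMZM2G152466 and the actins GRMZM2G006765 and GRMZM2G067985. Open circles are the probes that did not pass the threshold in all 3 arrays, and in the alpha tubulin these are the probes at 1924 and 1973.

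Over the 12 alpha tubulin probes above background the median SD between replicates was 0.16 (log2), with a range of 0.08 to 0.42, and over the 6 detected transcripts it was 0.17, equal at this precision to the median of 0.17 over all 37379 detected transcripts of the array. The lowest replicate was replicate 1 in 1 probe, replicate 2 in 5 and replicate 3 in 6. The mean over the 12 probes deviated from its average by 0.05, 0.05 and -0.10 in replicates 1, 2 and 3, an SD of 0.08.

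GRMZM2G006765, the Maz81 actin, was dimmer in replicate 3 than in both other replicates in all 6 of its probes. In GRMZM2G006765_T01 the probe at position 227 read 2596, 2202 and 926 in replicates 1, 2 and 3, the probe at 395 read 3578, 4273 and 1460, and the probe at 558 read 3172, 2647 and 1641. The lowest of these values is still above the threshold of its array, 285, and 99.6% of the random control probes there were dimmer. The transcript level was 11.64, 11.40 and 10.17, which is 11.07 ± 0.79, and 98.9% of the detected transcripts of the array had a smaller SD.

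The second transcript of the gene showed the same replicate low at a level far over background. In GRMZM2G006765_T02 the probe at position 264 read 23763, 24736 and 14509, the probe at 817 read 22262, 21140 and 14695, and the probe at 1244 read 26853, 27493 and 14690. All 9 values exceeded every random control probe, and replicates 1 and 2 lay close together in each probe while replicate 3 stood below them. The level was 14.54, 14.57 and 13.83, which is 14.31 ± 0.42, with a smaller SD in 92.0% of the detected transcripts.

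Replicate 3 differed from the mean of the other replicates by -1.42 to -0.56 on the log2 scale in these 6 probes, with a median of -0.85. Its intensity was 0.373 to 0.677 of the geometric mean of the others. By more than 0.5 below both other replicates, a size set after the values were seen, were 6 of 6 probes of this gene. Of the 30 probes above background of GRMZM2G152466 and GRMZM2G067985, 0 were. A probe of another actin gene, Maz83, met this size too, with 4932, 4464 and 3027 at position 66 of GRMZM2G126190_T03. Of all 79857 probes above background on the array, 2.13% met this size in replicate 3, 2.16% in replicate 1 and 6.16% in replicate 2. Among the genes with at least 6 probes above background, the number this gene has, 2 of 1938 had replicate 3 so low in all their probes. This gene is counted among them. Of 25147 transcripts with all probes above background 115 did (0.457%), both transcripts of this gene included. The size of 0.5 lies just under the smallest drop of this gene, 0.52, so these counts are no measure of how rare its pattern is. At a size of 1 instead of 0.5, 2 of the 6 probes met it, both of GRMZM2G006765_T01, against 0.152% of the probes above background on the array.

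The probes of the gene lie apart on the array, and the 100 transcript probes nearest to each on its surface had a median difference of -0.20 to 0.10 between replicate 3 and the others. With a plane over the surface removed from each array, the median over the 6 probes was -0.82, against -0.85. The SD of GRMZM2G006765_T01 was then 0.67, against 0.79, and that of GRMZM2G006765_T02 was 0.36, against 0.42. A plane does not take out local unevenness, and whether the array surface had a part was not tested. These arrays measure pools of whole roots, in which fewer cells of a type and less RNA per cell cannot be told apart. Replicate 3 is also 1 pool of plants on 1 array, and the pool and the array cannot be told apart either.

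**Figure D3:**
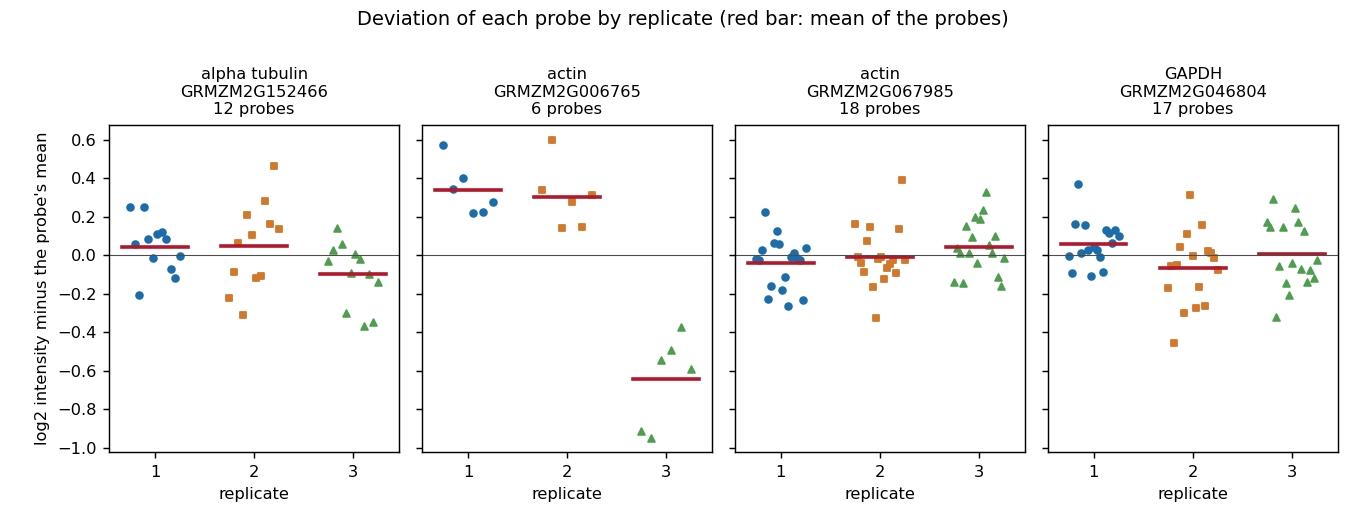
Deviation of each probe above background from its own mean over the 3 replicates (log2 intensity), by replicate, for the alpha tubulin GRMZM2G152466, the actins GRMZM2G006765 and GRMZM2G067985 and the second RT-PCR reference gene GRMZM2G046804 (GAPDH). Points are probes and red bars their means, which for GRMZM2G006765 are 0.34, 0.30 and -0.64 and for the other genes lie between -0.10 and 0.06.

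GRMZM2G067985, the other actin, had the most transcripts of the 3 genes. GRMZM2G067985_T01, T02, T10 and T14 had both probes above background in every array. GRMZM2G067985_T10 read 45672, 44384 and 47612 at position 721 and 39244, 38235 and 39334 at position 1472 in replicates 1, 2 and 3, and its level of 15.37 ± 0.04 had the smallest SD among the transcripts of this gene measured by 2 probes. GRMZM2G067985_T01 read 34382, 39004 and 31681 at position 558 and 32323, 32689 and 33760 at position 1338 (level 15.05 ± 0.07). The replicates thus stood in a different order in its probes. GRMZM2G067985_T14 read 23839, 36647 and 25015 at position 569 and 2669, 2977 and 2508 at position 2, with replicate 2 highest in both (level 13.09 ± 0.23).

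GRMZM2G067985_T02 read 34108, 32544 and 33705 at position 1292 and 1847, 1488 and 1429 at position 1675. Both probes passed the threshold in all arrays, and replicate 1 was highest in both (level 12.83 ± 0.11).

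In 6 transcripts of this gene, GRMZM2G067985_T04, T05, T06, T08, T13 and T15, a probe above background in all arrays stood beside one that was not. Over the array 32.2% of the transcripts with more than 1 probe had such a pair. It occurred in none of the 9 transcripts of GRMZM2G152466 and GRMZM2G006765, and in 2 of the 8 of the second RT-PCR reference gene, GRMZM2G046804 (GAPDH). GRMZM2G067985_T04 read 40305, 49687 and 52472 at position 1273, above every random control probe, and 109, 149 and 129 at position 146, where 74.2, 85.1 and 81.3% of the random control probes were dimmer. GRMZM2G067985_T06 showed the same split, with 52672, 44880 and 53817 at position 1209 and 205, 213 and 247 at position 82. The probes of these 2 transcripts are spaced alike, at 1127 bases. GRMZM2G067985_T13 had its bright probe at position 549, with 46433, 43974 and 50216, and its dim one at 1285, with 139, 90.6 and 110.

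For such transcripts the median polish gives a level between a bright probe and one at background. The levels of T04, T06 and T13 were 11.35 ± 0.19, 11.76 ± 0.12 and 11.26 ± 0.16, and each passed the detection threshold although 1 of its 2 probes did not in any array. The spread of the level then also carries that of the dim probe. GRMZM2G067985_T05 read 30835, 38086 and 34693 at position 1383 (SD 0.15 on the log2 scale) but 189, 255 and 81.7 at position 146 (SD 0.85), and its level had an SD of 0.40. GRMZM2G067985_T15 read 48061, 46060 and 46370 at position 495 (SD 0.03) but 244, 185 and 953 at position 1645 (SD 1.26). The last of these values, in replicate 3, was above 99.7% of the random control probes, while the other 2 were below the threshold. The level of T15, 11.79, 11.58 and 12.71, was therefore 1.03 higher in replicate 3 than in the mean of the others through the dim probe alone, since the bright one was not higher there. Its SD of 0.60 exceeded that of 97.4% of the detected transcripts.

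GRMZM2G067985_T08 has 3 probes within 46 bases and a level of 8.98 in each replicate, an SD of 0. Its probes did vary. The one at position 1260 read 273, 367 and 310 (SD 0.21), which is above background in replicates 2 and 3 only, the one at 1299 read 527, 385 and 553 (SD 0.29) and the one at 1306 read 514, 487 and 481 (SD 0.05). Each probe ordered the replicates differently. With 3 probes the median polish can settle on equal values for different arrays, and it gave an SD of 0 in 505 of the 19494 transcripts with 3 probes (2.59%) and in 0 of the 40256 with 2. With the mean of the probes in place of the median polish, the level of T08 was 8.78 ± 0.04.

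The remaining transcripts of GRMZM2G067985 were near or at background. GRMZM2G067985_T09 has 3 probes within 7 bases, at positions 5, 8 and 12, which read 651, 734 and 843, then 317, 315 and 404, then 416, 477 and 626. All passed the threshold of each array, replicate 3 was highest in all 3, and none came near the highest random control probe (levels 8.78, 8.95 and 9.28, SD 0.26). GRMZM2G067985_T11, whose probes have the highest positions of the gene, read 129, 101 and 155 at position 2047 and 240, 229 and 201 at position 2573. Neither probe passed the threshold in any array, and the level was 7.54 ± 0.11.

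**Figure D4:**
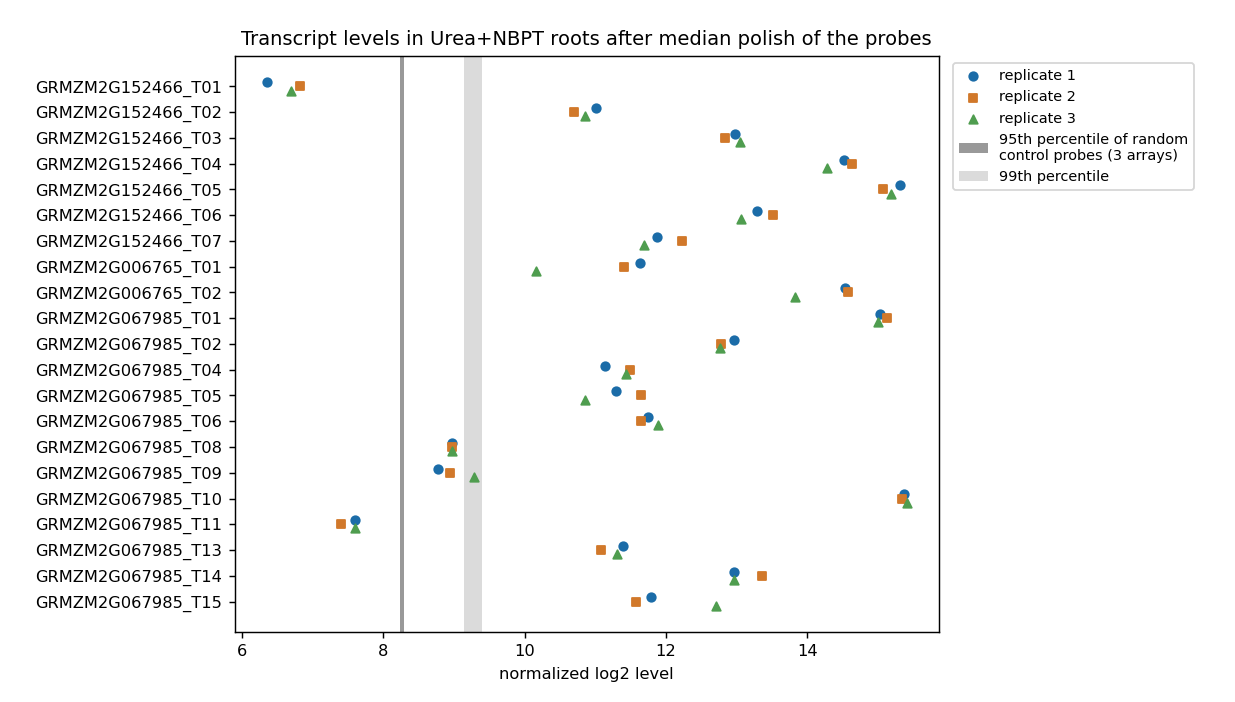
Normalized log2 level of the 21 transcripts in each of 3 replicates, after median polish of their probes, with the range over arrays of the 95th (dark band) and 99th percentile (light band) of the random control probes. GRMZM2G152466_T01 and GRMZM2G067985_T11 lie below the 95th percentile, and levels of different transcripts are not comparable.

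Over the 18 probes of GRMZM2G067985 above background the median SD between replicates was 0.15, against 0.50 over the 6 probes of GRMZM2G006765, 0.16 over the 12 of the alpha tubulin and 0.21 over all probes above background. The mean over the 18 probes deviated by -0.04, -0.01 and 0.05 in replicates 1, 2 and 3 (SD 0.04). Over the 19 detected transcripts of the 3 genes together the median SD was 0.18, and 0.16 without GRMZM2G006765.

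The second RT-PCR reference gene, GRMZM2G046804, encodes cytosolic glyceraldehyde-3-phosphate dehydrogenase (GAPC1, GAPDH), an enzyme of glycolysis. Of its 8 transcripts 7 were detected, against 62.6% of all transcripts. Of its 19 probes 17 lay above background in all arrays, against 57.5% of all transcript probes, and their median SD was 0.14. In the transcript for which its primers are listed, GRMZM2G046804_T07, the probe at position 1701 read 16211, 15650 and 14686, all above every random control probe. The probe at 462 read 307, 189 and 307, above the threshold in replicates 1 and 3 only. The mean over the 17 probes deviated by 0.06, -0.07 and 0.01, an SD of 0.06, close to the 0.08 of the alpha tubulin. Of the transcripts listed for the RT-PCR references, the GAPDH one thus had a level of 11.02 ± 0.19 and was detected, and the alpha tubulin one was not. That GAPDH level lies between a bright probe and a dim one. Which transcripts the alpha tubulin primers amplify was not determined.

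Other genes of the cytoskeleton were found through their names in the gene table, which matched 18690 of the 39219 genes on the array (47.7%), so each list is incomplete. The counts of detected transcripts in these lists stand beside the 62.6% detected over the whole array. Besides the actins GRMZM2G006765 and GRMZM2G067985, 5 actin genes were named, with 6 of 7 transcripts detected. Replicate 3 differed from the mean of the others by -0.47 to 0.35 in these, with a median of -0.21, against a median of 0.0066 over all detected transcripts. Of the actin gene Maz83, GRMZM2G126190_T03 had levels of 13.43, 13.08 and 12.79 and GRMZM2G126190_T02 had 14.25, 14.16 and 13.88. Replicate 3 was lowest in both of these detected transcripts and closer to the other replicates than in GRMZM2G006765. The remaining Maz83 transcript, GRMZM2G126190_T01, was not detected and had 8.64, 8.21 and 7.67. Its difference in replicate 3 was -0.76, beside -0.73 in GRMZM2G006765_T02. Replicate 3 was the lowest in every probe of Maz83, as in GRMZM2G006765. The actin act1 ran the other way, with 12.90, 12.96 and 13.27 in GRMZM2G126010_T01.

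The other alpha tubulin genes, TUA2, tua5 and tua6 (3 in number), had 12 of 14 transcripts detected, against 62.6% of all transcripts. The median SD of these 12 was 0.10. Replicate 3 differed from the others by -0.28 to 0.19 in them. Of the 7 beta tubulin genes, whose products pair with alpha tubulin, 17 of 21 transcripts were detected (81.0%, median SD 0.15). Their SDs lay between the 0.06 of the tub6 transcript GRMZM2G071790_T01 (15.10, 14.98 and 15.04) and the 0.41 of the TUB1 transcript GRMZM2G164696_T01 (11.22, 10.41 and 10.85). These are single transcripts, and the other tub6 transcripts had SDs of 0.15 to 0.27 and the other TUB1 transcripts 0.08 and 0.12. Gamma tubulin, which seeds new microtubules, was detected in 3 of 7 transcripts (42.9%). No detected tubulin transcript reached the difference of the GRMZM2G006765 transcripts in replicate 3, where the lowest, of beta tubulin, was -0.50. A smaller difference of the same sign was common in these families. Replicate 3 was the lowest in 61.1% of the detected alpha tubulin transcripts, tua4 included, and in 70.6% of beta tubulin. Over all detected transcripts it was 28.3%. The median differences were -0.13 for alpha and -0.18 for beta tubulin, against 0.0066 over all.

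Among proteins that act on actin, profilin, which binds actin monomers, was detected in 11 of 17 transcripts of 7 genes. That is 64.7%, near the 62.6% of all transcripts on the array. Replicate 3 was the lowest in 63.6% of the detected profilin transcripts, with a median difference of -0.19. The profilin GRMZM2G140455_T01 had levels of 12.25, 11.85 and 10.80, and was the one detected transcript of the actin, tubulin and profilin lists outside GRMZM2G006765 with replicate 3 more than 1 below the others, at -1.25. Both of its probes were lowest there, with 2505, 1505 and 818 at position 182 and 9376, 8995 and 3800 at position 791. Actin-depolymerizing factor, which severs filaments, was detected in 2 of 6 transcripts (33.3%), both of ADF3, with SDs of 0.10 and 0.17. Villin, which bundles filaments, was detected in 3 of 3 transcripts, and GRMZM2G180988_T01 had 14.16, 14.17 and 14.16. Of the myosins, the motors of actin filaments, 5 of 10 transcripts were detected (50%). In GRMZM2G332687_T01 replicate 2 stood high at 12.34 beside 9.49 and 9.11 in replicates 1 and 3. The single named kinesin, a microtubule motor, was detected.

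**Figure D5:**
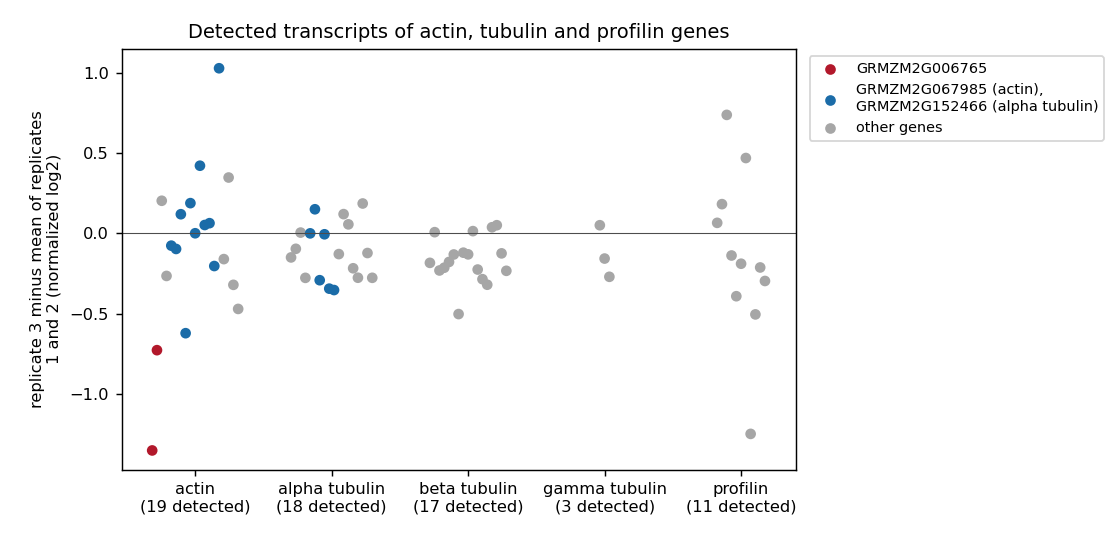
Difference between replicate 3 and the mean of replicates 1 and 2 (normalized log2) for each detected transcript of the actin, alpha, beta and gamma tubulin and profilin lists. Red points are the GRMZM2G006765 transcripts (-1.35 and -0.73), blue points those of the other actin and alpha tubulin genes described and grey points those of other genes, with the profilin GRMZM2G140455_T01 at -1.25.

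By distance between centred replicate values, the detected actin or tubulin transcripts of other genes most like the alpha tubulin mean were TUA2 (GRMZM2G153292_T02, distance 0.01), a gamma tubulin (GRMZM2G073888_T05, 0.02) and an actin (GRMZM2G082484_T01, 0.03), of 51 candidates. For GRMZM2G067985 they were the gamma tubulin GRMZM2G073888_T02 (0.06) and TUA2 in GRMZM2G153292_T03 (0.07) and GRMZM2G153292_T04 (0.11). For GRMZM2G006765 the nearest were farther away, namely GRMZM2G067985_T05 at 0.47 and the Maz83 actin GRMZM2G126190_T03 and the beta tubulin tub3 (GRMZM2G108766_T01) at 0.50 each. GRMZM2G067985_T05 is the transcript whose low replicate 3 lies in the probe at background. The distance grows with the size of the deviations, so the larger distances of GRMZM2G006765 restate its low replicate 3. Profilins, among them GRMZM2G140455_T01 with its low replicate 3, were not candidates. With 3 values per transcript these distances describe the arrays only.

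Over all transcripts the replicates correlated at 0.978 to 0.990, with transcripts not independent of each other. Of 4 root marker genes named, 2 were found on the array. Their transcripts, of the Casparian strip protein ZmCASP1 and the nicotianamine synthase nas2, were both detected. Of the green leaf transcripts 6 of 19 were detected (31.6%), against 62.6% of all transcripts. At that share over the array, 2 detected root transcripts say little about the tissue.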

How the data were processed

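RNA of 3 Urea+NBPT root pools was labelled with Cy3 and hybridized by the authors, each to a NimbleGen maize array, and 1 intensity per probe was extracted with NimbleScan. The deposited intensities are on a linear scale. At no rank did the sorted arrays differ by more than 0.183%, so the values appear quantile normalized. The methods name both files of raw probe signal and files of quantile-normalized, summarized values, and the files used here hold 1 value per probe. The labels name RMA, with no version. The deposited value table differed from the array files in 0 values.

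From the deposited intensities, log2 levels were computed here with R 4.3.3 and limma 3.58.1: normexp background correction (offset 50), quantile normalization and median polish per transcript. Counts and figures used Python 3.11.15. The detection threshold was the intensity that 95% of an array's random control probes did not exceed. The scripts were checked on simulated arrays. With 1 group no test was run, and the number of arrays limits the precision. Alternatives were other thresholds, background corrections, scalings and summaries, removal of a plane and leaving out each replicate.

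Members and lists were chosen with earlier results of these data known. All transcripts and probes of the 3 genes, the GAPDH reference, and list members by smallest and largest SD or by likeness were named. Further list members (Maz83, act1, tua5, tua6) were named after their values were seen. Lists came from RefSeq names (assembly Zm-B73-REFERENCE-NAM-5.0, used for names only). The actin-depolymerizing factor list required an ADF name. Lists of actin-related proteins, formins, fimbrins, microtubule-associated proteins, tubulin folding cofactors and pollen markers held no array gene. Primer sequences were taken from the study's primer list.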

Additional observations from a re-analysis of the deposited data

How the results depend on the processing

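Detection of the actin and alpha tubulin transcripts held at 19 of 21 under all alternatives run, other than the stricter threshold of 99% of the random control probes, which gave 17 (47.4% of all transcripts). The count of probes above background was 31 there (45.1% of all probes), 37 with at least 2 arrays required or replicate 1 left out, and 36 otherwise. The deposited value table holds the same values as those used here, so it could not change these counts. The other scalings could change little, because the sorted arrays were already nearly equal. The median SD, here over all 21 transcripts, was 0.23 with an offset of 1, against 0.18. Over all detected transcripts of the array it was 0.19 with that offset, against 0.17. For the 21 transcripts it was 0.12 to 0.16 with a replicate left out, where fewer arrays give a smaller SD by construction. The median level over the 21 transcripts was 11.93, and 11.69 to 11.96 with a replicate left out. It was 11.69 without replicate 3, where GRMZM2G067985_T15 went from 12.03 to 11.68 and GRMZM2G067985_T06 became the middle transcript. The GRMZM2G006765 transcripts rose there, T01 from 11.07 to 11.51 and T02 from 14.31 to 14.57. Levels of different transcripts are not comparable, so this median does not show the members to be lower without replicate 3.

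The level of GRMZM2G067985_T08 moved by more than its SD of 0 in every alternative that recomputed it but the deposited value table. With an offset of 1, 6 of the 21 levels moved by more than their SD, 5 of them besides T08, all of transcripts with a probe at background. Without background correction 3 did. Replicate 3 minus the others over the GRMZM2G006765 probes had a median of -0.91 to -0.82 in the alternatives, which were chosen after seeing the data, and all 6 probes were lower in each. No paired analysis was possible because there is 1 group. Signals near the random control probes limit what can be said of GRMZM2G067985_T08, T09 and T11 and GRMZM2G152466_T01.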
